A study of Homo sapiens with 288 samples.

Results

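The genes described here encode the proteins of the cytosolic ribosome. They were chosen by name, as every row of the 3 count tables whose symbol begins with RPL or RPS, leaving out the RPS6 kinases, RPS4Y1 and its relatives, and RPS19BP1. This gave 95 of the 17492 rows in each table, 63 with large subunit names and 32 with small subunit names. Of the 95 members, 72 are canonical ribosomal protein genes, 8 are paralogues of a canonical gene (RPL3L, RPL7L1, RPL10L, RPL22L1, RPL26L1, RPL36AL, RPL39L and RPS27L), 12 carry pseudogene names such as RPL21P75, and 3 are readthrough genes that join a ribosomal protein gene to its neighbour. Of a list of 77 canonical names, 5 were not analysed here.

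The counts came from single cells of 2 types derived from H1, an established human embryonic stem cell line. The endothelial cells (EC) had been cultured for 2 days in E8 medium with BMP4 (5 ng/ml) and Activin A (25 ng/ml) and for 3 more days with VEGF and WNT. The trophoblast-like cells (TB) had been cultured in E7, which is E8 medium without FGF2, with BMP4 (50 ng/ml) and SB431542. Stored full-length cDNA of 45 EC and 51 TB cells was brought to an equal input and sequenced in the experiments EQ (equal pooling volumes), EQ-Vary (pooling volumes varied on purpose) and EQ-75% (a repeat of EQ at lower depth), which gave 288 libraries of 96 cells. The 3 experiments therefore measured the same cells and are technical repeats, not independent samples of EC and TB. No separate cultures are named, so each cell type in an experiment is 1 sample, cells are not replicates, every SD is over cells of that sample, and p-values are not given.

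Cells were used when they passed the limits of the study, a log10 total count of at least 5.4 and no more than 31% of counts in the 50 most abundant genes. In EQ, 38 EC and 48 TB cells passed, with total counts from 365557 to 3966827. The labels were checked with fixed marker lists. All 10 endothelial markers were more than 1.5-fold higher in EC and 9 of 10 trophoblast markers were so in TB, GATA2 being the exception. One passing EC cell, EC cell 15, had a higher sum of trophoblast than of endothelial markers in all 3 experiments. In EQ it had the lowest summed endothelial marker level of the EC cells, 308 CPM (counts scaled to a total of 1000000 per cell), against 3962 CPM for the trophoblast list and 1997 CPM for 4 pluripotency genes. EC cell 43 had nearly equal sums in EQ, 1704 CPM for endothelial and 1715 CPM for trophoblast markers, and was kept throughout. TB cells 7 and 9 stood apart from the other TB cells in the share of counts held by ribosomal protein genes, and had 494186 and 529656 counts and summed trophoblast marker levels of 1493 and 1278 CPM, the latter the lowest of the TB cells. Some results, such as the shares of counts, are given with and without EC cell 15 and TB cells 7 and 9. The others include these cells where they passed, and how far they rest on them was not tested. Differences between EC and TB cannot be told apart from differences between their cultures.

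Ribosomal proteins assemble with ribosomal RNA in the nucleolus into the large and the small subunit, which join on an mRNA to translate it. Cells need them in nearly equal numbers, and their mRNAs are among the most abundant of a dividing cell. Most of these mRNAs begin with a C and an unbroken run of pyrimidines, the terminal oligopyrimidine (TOP) tract, through which mTOR signalling controls their translation.

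That tract was visible in the reference at the annotated starts of the members. RefSeq start sites (GRCh38.p14) were found for 66 of the 95 members. A C at the start followed by at least 4 pyrimidines, read on the sense strand, stood at an annotated start of 46 of them (69.7%) and of 44 of 58 canonical members (75.9%). The share was 5.14% over all 27305 genes with a start site in the same table and 6.24% over its 15842 protein-coding genes. The same tract stood at the starts of 9 of 11 translation factor genes of a list of TOP mRNAs, but at only 2 of 23 ribosome assembly factor genes and 6 of 69 mitochondrial ribosomal protein genes. The letters CTTTCC, which can overlap the tract, lay within 20 bases of an annotated start on the sense strand in 28.8% of members and 2.56% of all genes. The sequences below run from 10 bases before the start to 20 bases from it, 5′ to 3′, with the tract in capitals. The first 6 are canonical members of the large and small subunits with a tract. RPL13 and RPL12 are among the canonical members with the largest differences between EC and TB, as are RPS2 and RPL7, which have no start entry. RPL22L1 is the one paralogue with a tract, and the last 4 have none.
RPL12: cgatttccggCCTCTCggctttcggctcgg
RPL13: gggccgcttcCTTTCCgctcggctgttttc
RPLP1: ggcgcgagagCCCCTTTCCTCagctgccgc
RPL21: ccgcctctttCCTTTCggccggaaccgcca
RPS6: gaagttggccCTCTTTTCCgtggcgcctcg
RPS27: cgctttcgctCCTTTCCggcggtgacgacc
RPL22L1: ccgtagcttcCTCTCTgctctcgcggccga
RPL7L1: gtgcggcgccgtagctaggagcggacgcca
RPS27L: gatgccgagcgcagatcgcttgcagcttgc
RPL26L1: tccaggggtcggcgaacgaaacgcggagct
RPS26: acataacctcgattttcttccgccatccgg
These windows lie at chr9:127451387-127451416 on the minus strand for RPL12, chr16:89560672-89560701 on the plus strand for RPL13, chr15:69452808-69452837 on the plus strand for RPLP1, chr13:27251548-27251577 on the plus strand for RPL21, chr9:19380217-19380246 on the minus strand for RPS6 and chr1:153990752-153990781 on the plus strand for RPS27. Those of the others are chr3:170870176-170870205 (minus, RPL22L1), chr6:42879606-42879635 (plus, RPL7L1), chr15:63157458-63157487 (minus, RPS27L), chr5:172958719-172958748 (plus, RPL26L1) and chr12:56041908-56041937 (plus, RPS26). RPL13 has 3 annotated starts and RPL26L1 has 2, of which 1 each is shown. RPL13 has the tract at 1 of its starts and RPL26L1 at neither.

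TB cells devoted a larger share of their counts to ribosomal protein genes than EC cells did. In EQ the 95 members took 8.86% ± 1.93 (SD, n = 48 cells) of the counts of a TB cell and 4.54% ± 1.04 (SD, n = 38 cells) of those of an EC cell, a ratio of 1.95. The lowest, median and highest EC cells were at 2.47%, 4.32% and 6.92%, and the corresponding TB cells were at 2.61%, 9.33% and 12.6%. The types overlapped in few cells, since 44 of 48 TB cells lay above the highest EC cell. That EC cell was EC 15, the one whose markers went against its label in all 3 experiments, and the 2 lowest TB cells were TB 9 and TB 7. Without these 3 cells the shares were 9.11% ± 1.51 in TB, from 6.47% to 12.6%, and 4.47% ± 0.970 in EC, from 2.47% to 6.36%, and the types did not overlap, which follows in part from the choice, since TB cells 7 and 9 were singled out for their low shares. Over the summed counts of all passing cells, the share was 8.99% in TB (95% exact binomial interval 8.984 to 8.996) and 4.77% in EC (4.765 to 4.775). These intervals cover counting error only. The difference of 4.32 percentage points was larger than both SDs between cells.

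**Figure D1:**
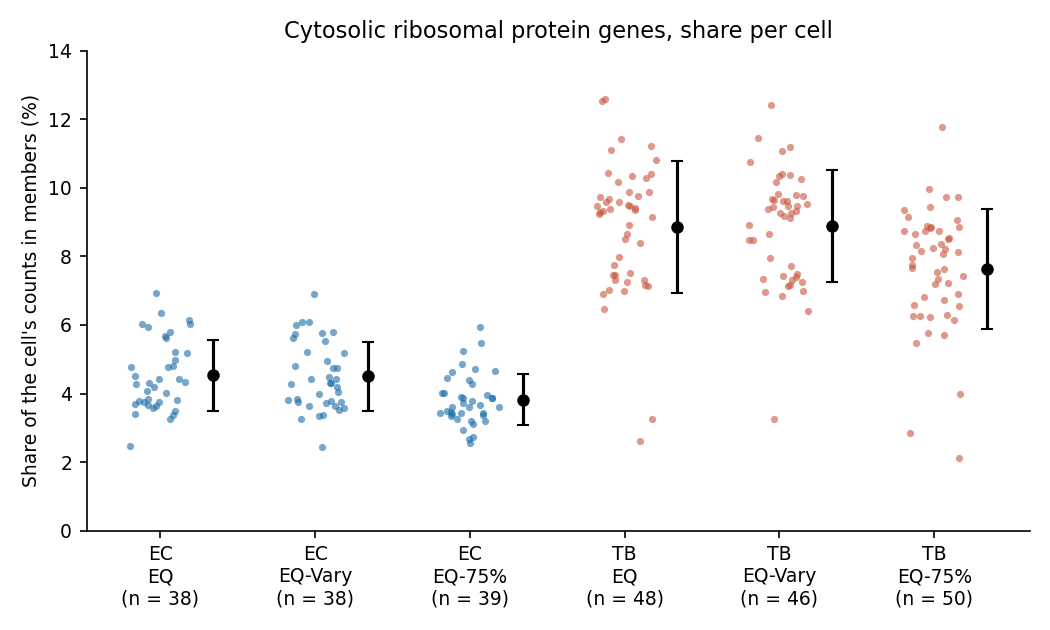
Share of each cell's rounded counts (percent, y axis) in the 95 cytosolic ribosomal protein genes, for EC (blue) and TB (red) in the 3 experiments (x axis). Each point is a passing cell, and the black point and bar are the mean and 1 SD over cells: TB cells sit near 8.86% in EQ and EC cells near 4.54%, and both are lower in EQ-75%.

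The large and small subunit genes contributed to this share in nearly the same proportion in both cell types. RPL members took 2.88% ± 0.660 of counts in EC and 5.71% ± 1.26 in TB, and RPS members took 1.66% ± 0.395 and 3.14% ± 0.682. The ratio of large to small subunit counts was 1.74 ± 0.151 (SD) in the 38 EC cells and 1.82 ± 0.111 in the 48 TB cells, a difference smaller than either SD. The canonical members alone took 4.22% ± 0.985 and 8.34% ± 1.83.

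The difference between the cell types extended to all 72 canonical genes, though unevenly. Every canonical member had a higher mean CPM in TB than in EC in each of the 3 experiments, as did 52.1% of all genes tested in EQ (EQ-Vary 51.6%, EQ-75% 53.7%). Each ratio below is the log2 of the EC mean plus 1 over the TB mean plus 1. In EQ, 60 of 72 canonical members were more than 1.5-fold higher in TB and none was so in EC, and 23 of the 72 (31.9%) were at least 2-fold higher, a share near the 24.6% of all genes tested that were more than 2-fold higher in TB. Over all members, 91 had a mean of at least 1 CPM, of which 69 were more than 1.5-fold higher in TB and 1 in EC. Over the 12351 genes of the table at that level, 33.7% were more than 1.5-fold higher in TB and 26.8% in EC. The median log2 ratio was -0.80 over the 91 members and -0.83 over the 72 canonical members, against -0.06 over all genes tested. The mean difference between the types was larger than both SDs between cells for 53 of the 72. The share over all genes is not given here. Members varied less between cells than all genes of at least 100 CPM, which makes this rule easier to meet, so the count is not read as particular to them.

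**Figure D2:**
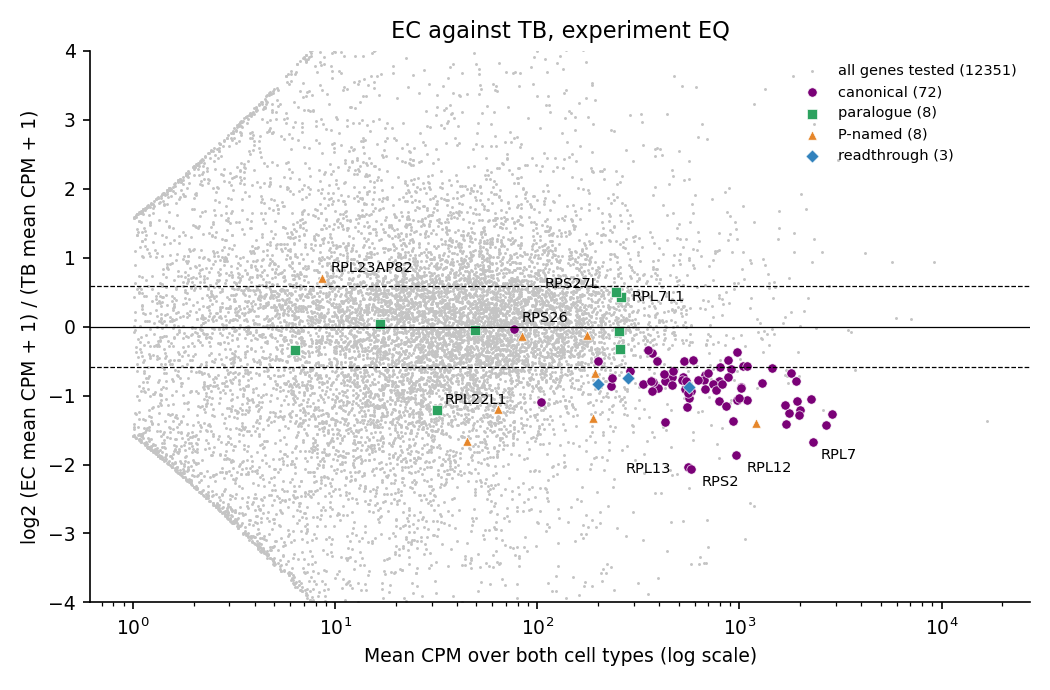
Log2 ratio of EC over TB (y axis, mean CPM + 1) against the mean CPM over both types (x axis, log scale) in EQ for 12351 genes of at least 1 CPM (grey; genes beyond 4 on the log2 scale are not drawn) and for the members by class. Dashed lines mark 1.5-fold: 60 of 72 canonical members lie below the lower line, whereas RPS26 and the paralogues RPL36AL, RPL26L1 and RPL39L lie near 0.

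The canonical members with the largest differences were RPS2, RPL13, RPL12 and RPL7. RPS2, a small subunit protein near the mRNA entry channel, ranged from 54.7 to 700.5 CPM in EC (median 178) and from 380.4 to 3494 CPM in TB (median 697). Every one of the 48 TB cells was above the EC median, and its log2 ratio was -2.06, or 4.18-fold higher in TB. RPL13, a large subunit protein, had a mean of 218 ± 158 CPM in EC and 899 ± 448 CPM in TB, with a log2 ratio of -2.04. RPL12, which lies at the base of the ribosomal stalk, ranged from 190.0 to 798 CPM in EC (median 406) and from 251 to 2627 CPM in TB (median 1576), with a log2 ratio of -1.86. RPL7 had means of 1099 ± 411 CPM and 3507 ± 1074 CPM, with a log2 ratio of -1.67. For RPL13, RPL12 and RPL7, 47 of 48 TB cells were above the EC median and all 38 EC cells were below the TB median. Of the 51-base windows of RPL7, 58.9% match the pseudogene row RPL7P1 within 2 mismatches, so part of its count is a division between rows. RPL23 and RPS6 followed, with log2 ratios of -1.42 and -1.41. RPS6, the small subunit protein that S6 kinase phosphorylates, was at 924 ± 325 CPM in EC and 2464 ± 712 CPM in TB.

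At the other end was RPS26, a small subunit protein that contacts the mRNA upstream of the start codon. Its EC cells ranged from 17.9 to 218 CPM with a median of 67.1, and its TB cells from 30.2 to 161.2 CPM with a median of 69.9. The means of 75.5 ± 36.3 and 77.1 ± 31.2 CPM differed by far less than the SD, with a log2 ratio of -0.03. Its pseudogene row RPS26P6 had almost the same pattern (80.6 and 88.2 CPM, log2 ratio -0.13), and 27.3% of the 51-base windows of RPS26 match that row within 2 mismatches. The other 11 canonical members within 1.5-fold were RPLP2, RPL10, RPL35, RPL19, RPL37, RPL22, RPS21, RPL24, RPL38, RPL4 and RPLP1, between 1.27-fold and 1.49-fold higher in TB.

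**Figure D3:**
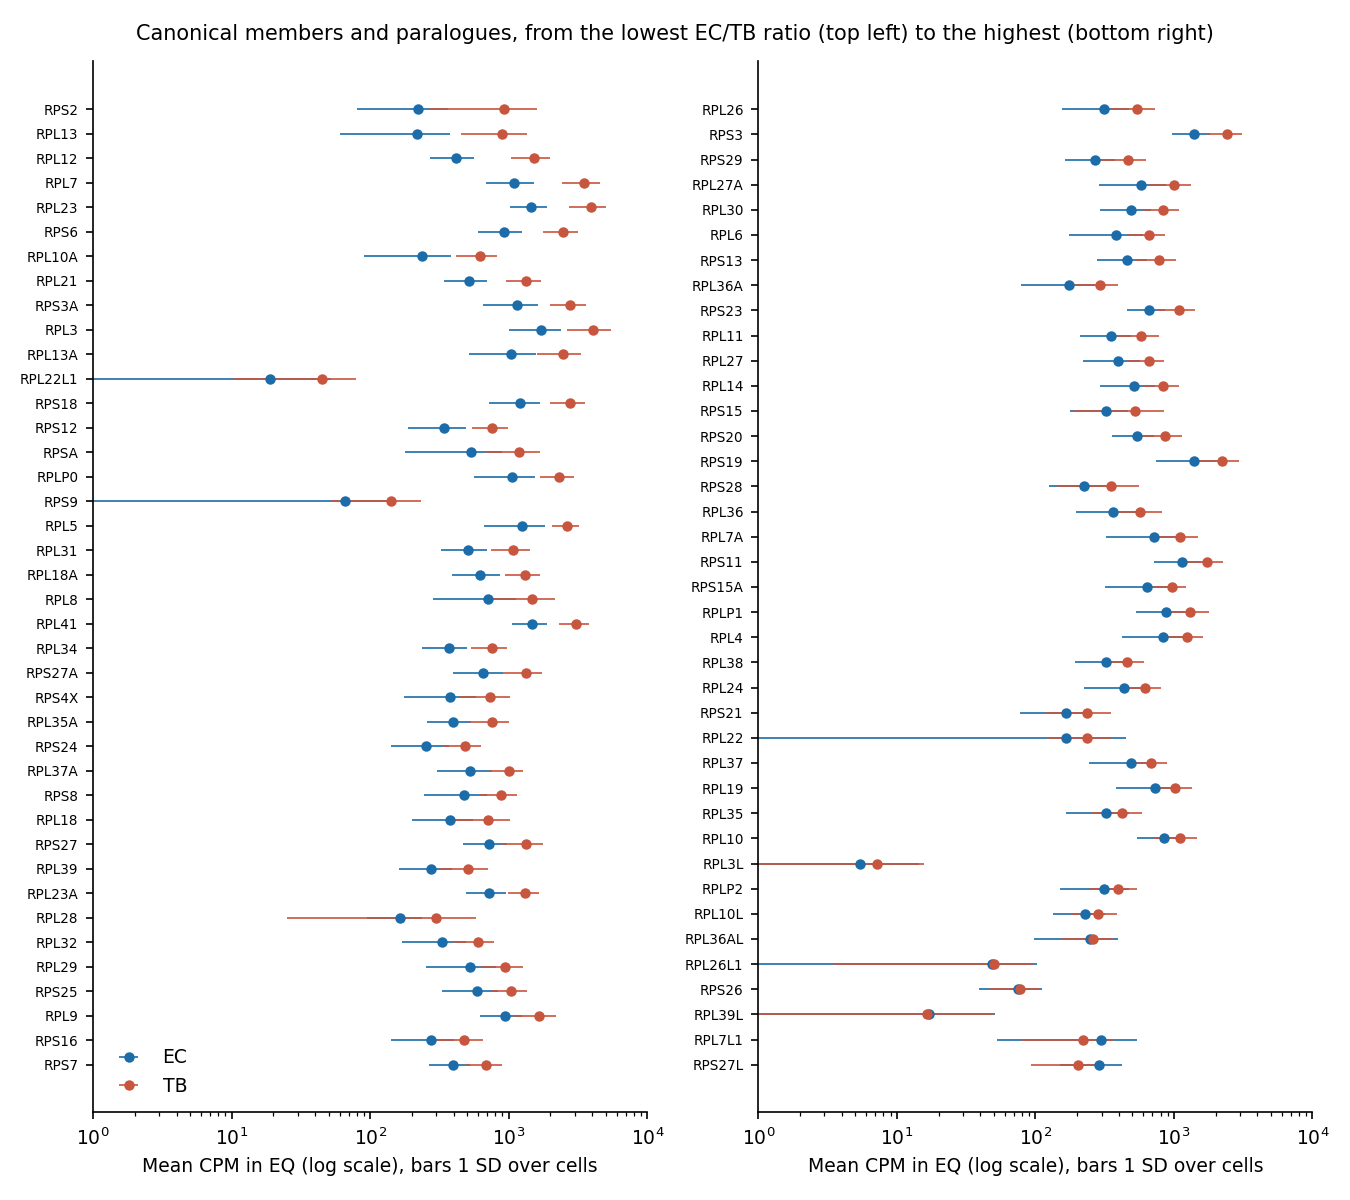
Mean CPM in EQ (x axis, log scale) of 71 of the 72 canonical members and 8 paralogues (y axis), ordered from the lowest EC over TB ratio (top left) to the highest (bottom right), for EC (blue) and TB (red). Bars are 1 SD over cells, and bars that reach the left edge extend below 1 CPM. TB points lie to the right for every canonical member drawn, and the order changes only among paralogues at the end, where RPL39L, RPL7L1 and RPS27L have the EC point to the right.

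Grouped by role, the members differed in degree. Over all genes tested 33.7% were more than 1.5-fold higher in TB. The lists are short and share genes, RPL5 and RPL11 being in 2 of them. The stalk proteins RPLP0, RPLP1 and RPLP2, which recruit translation factors, had log2 ratios of -1.14, -0.58 and -0.35. So 1 of 3 was past 1.5-fold (33.3%), near the share over all genes. RPLP0 was at 1049 ± 488 CPM in EC and 2318 ± 636 CPM in TB, while RPLP2, at 311 ± 160 and 395 ± 149 CPM, overlapped widely. RPL5 and RPL11, which join the 5S rRNA in a particle that can also bind MDM2, were both past 1.5-fold, with log2 ratios of -1.08 and -0.73. RPL5 was at 1244 ± 582 CPM in EC and 2629 ± 589 CPM in TB. Of the 8 genes of a list mutated in Diamond-Blackfan anaemia, an inherited failure of red cell production, 7 were past 1.5-fold higher in TB, with a list median of -0.81, and RPS26 was the exception. Of 8 proteins at the polypeptide exit tunnel, 4 were past 1.5-fold (50.0%, against 33.7% of all genes), with a median of -0.68. RPS27A, made as a fusion with ubiquitin, was at 650 ± 254 CPM in EC and 1330 ± 420 CPM in TB, a log2 ratio of -1.03.

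Most paralogues had a smaller difference between the types than the genes they resemble. Of the 8 paralogues, 1 was more than 1.5-fold higher in TB (12.5%, against 33.7% of all genes) and none in EC (against 26.8% of all genes). Their median log2 ratio was -0.06, against -0.83 over the canonical members. RPS27L, a paralogue of RPS27 known as a p53 target, was higher in EC, at 286 ± 135 CPM against 202 ± 110 CPM in TB, a log2 ratio of 0.50, while RPS27 itself had a ratio of -0.90. Its lowest, median and highest cells were at 82.5, 274 and 698 CPM in EC and at 66.4, 171 and 498 CPM in TB, so the types overlapped. RPL7L1, a nucleolar relative of RPL7, was at 297 ± 244 and 221 ± 142 CPM, with a ratio of 0.42, beside -1.67 for RPL7. RPL10L had a ratio of -0.32, close to -0.37 for RPL10. RPL36AL and RPL26L1 had ratios of -0.07 and -0.05, beside -0.75 and -0.79 for RPL36A and RPL26. RPL39L was at 17.0 ± 33.8 and 16.5 ± 32.7 CPM, with no count in 16 of 48 TB cells and 15 of 38 EC cells. RPL39 itself was at 276 ± 114 and 511 ± 192 CPM. RPL22L1 was the paralogue past 1.5-fold, at 18.7 ± 33.8 CPM in EC and 44.8 ± 34.4 CPM in TB, a ratio of -1.21. It was detected in 29 of 38 EC cells and 47 of 48 TB cells. RPL3L, the striated muscle form of RPL3, was under 10 CPM in both types. RPL22L1 is the only paralogue with a TOP tract at an annotated start, so nothing can be read from it alone. The 5 paralogues whose starts lack one lay between -0.32 and 0.50, and RPL39L and RPL3L had no start entry. Among canonical members the median ratio was -0.85 over the 44 with a tract, -0.78 over the 14 without and -0.89 over the 14 with no entry.

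Near-identical rows limit what can be read from single genes. RSEM divides a read among the rows it fits, and 51-base reads with 2 mismatches allowed fit several members. RPL21 shared 83.9% of its 51-base windows with 4 pseudogene rows, and RPL21P75 was assigned 53.6% of the counts of the 5 rows in EC and 54.0% in TB, more than the 41.6% and 41.1% assigned to RPL21. RPL21 and RPL21P75 then had log2 ratios of -1.36 and -1.39, and their log2 levels had a correlation of 0.88 over EC cells and 0.91 over TB cells. RPL10L, a retrogene known from testis, was detected in every cell at 227 ± 92.7 CPM in EC and 284 ± 104 CPM in TB, and its level followed that of RPL10 with a correlation of 0.97 in both types. Only 7.76% of its 51-base windows match RPL10 within 2 mismatches, and whether its counts are reads of RPL10 was not tested. RPS28P7 followed RPS28 with correlations of 0.85 and 0.96. The other 7 paralogues had correlations with their canonical partner between -0.37 (RPL22L1 in TB) and 0.33 (RPL36AL in TB).

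Several rows were at the floor of the measurement. The 5 members under 10 CPM in both types were RPL3L, RPL21P7, RPL26P30, RPL39P3 and RPL41P5. RPL41P5 was assigned no count in any passing cell of EQ, but all of its 51-base windows are also in RPL41, so the reads cannot separate it from that gene and set no limit on its level. RPL39P3 had counts in 2 EC cells and in no TB cell. RPL23AP82 was the member past 1.5-fold higher in EC, but at only 10.9 ± 15.4 CPM against 6.31 ± 8.49 CPM in TB, and 15 of 38 EC cells had no count. By contrast, the readthrough genes had counts in every cell. RPS10-NUDT3, RPL36A-HNRNPH2 and RPL17-C18orf32 had log2 ratios of -0.88, -0.83 and -0.75, near those of the canonical members, and at least 88.8% of the 51-base windows of each were found in other genes of the table.

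Levels of different members were compared per length, as mean CPM per kilobase of the median protein-coding transcript in GENCODE v44. The members, which are present in nearly equal numbers in the ribosome, were spread widely in the counts. Over the 72 canonical members the tenth and ninetieth percentiles were 247 and 1670 CPM per kilobase in EC, a ratio of 6.77, and 453 and 3374 in TB, a ratio of 7.45. The 5 highest in EC were RPS19, RPL41, RPL23, RPS18 and RPS27, and the 5 highest in TB were RPL23, RPL41, RPS18, RPS19 and RPS3A. RPL23 stood at 6638 CPM per kilobase in TB and 2480 in EC. The lowest in both types was RPS26, at 66.2 and 67.6, followed by RPL14, RPS9 and RPS28. These orders depend on the length chosen. The annotation gives RPL14 a median transcript of 7072 bases, and with the length of the canonical transcript the lowest gene in EC was RPL28 and the highest was RPS18 in both types.

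The members were detected almost without gaps. In EQ all 72 canonical members had a count in every passing EC and TB cell. Of all 95 members, 83 were detected in every EC cell and 84 in every TB cell, while 19.9% and 19.4% of all genes were. In EQ-75%, 70 of the 72 were detected in every EC cell, RPS9 and RPL36A being the exceptions, and 70 in every TB cell, RPS9 and RPS21 being the exceptions. Of all genes, 15.4% and 17.0% were. In EQ-Vary all 72 were detected in every EC cell and 71 in every TB cell, RPS9 being the exception, against 17.2% and 17.9% of all genes.

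They also varied less between cells than the whole set of genes of at least 100 CPM, which includes them. The genes were not matched for level, and the median of the canonical members' means was 489 CPM in EC and 892 CPM in TB. The part of level in this contrast was not tested. Over the 81 members of at least 100 CPM in EC the median coefficient of variation (SD over mean of CPM) was 0.449, against 0.977 over all 2247 genes at that level, and 80 of the 81 were below the median of those genes. In TB the values were 0.328 over 82 members and 0.786 over 2170 genes, with 80 of 82 below. The lowest were RPL41 in EC (0.276) and RPL5 in TB (0.224). The highest in EC was RPL22 (1.72), which turned on 1 cell. In EC cell 23 it reached 1826 CPM, against a median of 116 CPM over the passing EC cells, and in the libraries of that cell in EQ-Vary and EQ-75% it was 1734 and 2013 CPM. Without EC cell 23 the mean of RPL22 in EC was 121.5 ± 72.9 CPM and its log2 ratio went from -0.50 to -0.95, past 1.5-fold. EC cell 23 also had the lowest share of counts in members of all passing EC cells, 2.47%.

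The spread between cells was larger than the spread between libraries of the same cell when the mean shift between experiments was left out. Over the 37 EC cells that passed in all 3 experiments, the SD of log2 CPM between cells had a median of 0.72 over the 72 canonical members. The SD between 2 libraries of the same cell came from the differences within cells with their mean removed. Its median was 0.07 for EQ and EQ-Vary and 0.20 for EQ and EQ-75%. In TB (45 cells) the values were 0.48 between cells and 0.05 and 0.13 between libraries. The SD between cells was the larger for all 72 members in each of these 4 comparisons, and the share over all genes is not given here. The SDs between libraries leave out the mean change from EQ to EQ-75%, whose median over canonical members was -0.32 in EC and -0.28 in TB. The 2 SDs between libraries need not cover the same steps. EQ-Vary is described as differing from EQ in its pooling volumes, and whether its libraries were prepared anew was not tested. The SD for EQ and EQ-Vary may therefore leave out library preparation. The cDNA of a cell was made only once, so its amplification is part of the spread between cells.

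Large and small subunit genes went up and down together from cell to cell. The log2 sums of the RPL and RPS members had a Pearson correlation of 0.93 over 38 EC cells and 0.97 over 48 TB cells in EQ, and 0.94 and 0.98 when CPM was computed on the counts outside the members. The labels name no capture or library batch within a type, so what the cells share beyond their type was not tested. In EC the median correlation over all pairs of the 91 members of at least 1 CPM was 0.23, and over pairs of canonical members it was 0.28, with 86.4% of pairs above 0. Over all pairs of the 2247 genes of at least 100 CPM the median was 0.02. In TB the corresponding medians were 0.46, 0.55 and 0.02. The TB values rested in part on TB cells 7 and 9, without which the medians were 0.23 over the members, 0.30 over canonical members and 0.01 over genes of at least 100 CPM. The correlation of the RPL and RPS sums in TB without those cells was 0.96.

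**Figure D4:**
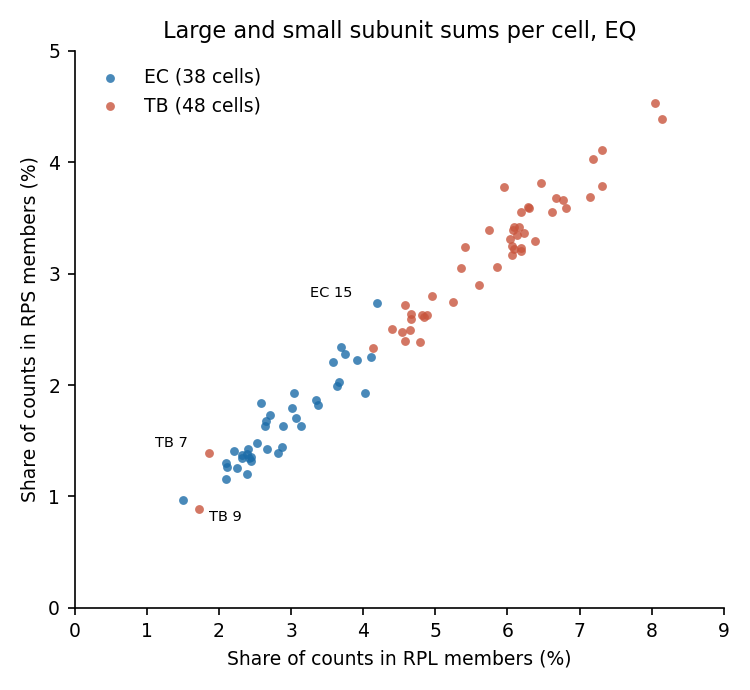
Share of counts in RPL members (x axis, percent) and in RPS members (y axis, percent) of each passing cell in EQ, for EC (blue) and TB (red). The 2 shares rise together in both types, and EC cell 15 and TB cells 7 and 9, the cells that stand apart, are labelled.

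Not every member took part. The correlation of a member with the sum of all others was highest for RPS19 (0.82), RPLP1 (0.81) and RPL37A (0.81) in EC and for RPL23 (0.92), RPS18 (0.92) and RPL13A (0.91) in TB. RPS26 was at 0.07 in EC and 0.02 in TB, so the canonical gene with the smallest difference between the types also had almost no correlation with the others within them. RPS7 was near 0 in EC (0.08) and at 0.54 in TB. RPL7L1, RPL22L1 and RPL39L lay between -0.08 and 0.06 in both types, and RPS27L was at 0.13 in EC and -0.33 in TB. RPL22 was at -0.24 in EC with EC cell 23 and at 0.07 without it.

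The share of counts in the members was also compared with depth. Over the passing cells of EQ, its correlation with the log10 total count was 0.57 in EC and 0.23 in TB. Without EC cell 15 the EC value was 0.61, and without TB cells 7 and 9 the TB value was -0.22. With the summed level of 8 mitosis genes the correlation was -0.14 in EC and -0.18 in TB. It was -0.35 in EC with the summed endothelial markers and 0.28 in TB with the summed trophoblast markers. These marker correlations include EC cell 15 and TB cells 7 and 9. EC cell 15 had both the highest share and the lowest endothelial marker sum of the passing EC cells. The part of depth in these shares was not tested.

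The count-depth rate is the slope of log count on log total count over the cells of a type. It is among the measures by which the study followed equalization, beside detection rates and highly variable genes. A rate of 1 means that counts grow in proportion to depth. The study summarized it by how far the modes of expression groups lay from 1, whereas medians over genes are given here. In EQ the median rate over the 72 canonical members was 1.28 in EC and 1.06 in TB, against 1.07 and 1.06 over all genes of at least 100 CPM. In EC 67 of 72 canonical members had a rate above 1, in TB 50 did, and 54.8% and 55.4% of the genes of at least 100 CPM did. In EQ-Vary, where depth varied most, the canonical members had median rates of 1.11 in EC and 0.99 in TB, against 1.03 and 1.003 over genes of at least 100 CPM. In EQ-75% they had 1.18 and 1.24, against 1.10 and 1.17.

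Within the same cells, the members took a smaller share of counts in EQ-75% than in EQ. The share was lower in 36 of 37 EC cells, by a mean of 0.741 percentage points (SD of the differences 0.705), from 4.56% to 3.82%. In TB cells it was lower in 44 of 47, by a mean of 1.18 points (SD 0.924), from 8.83% to 7.65%. As a ratio, the EQ-75% share was 0.852 ± 0.116 of that in EQ in EC and 0.870 ± 0.0821 in TB. EQ-Vary stayed close to EQ, with a mean difference of -0.0357 points (SD 0.0688, n = 38 cells) in EC and -0.0205 points (SD 0.0502, n = 46 cells) in TB. The shares of the same cells in EQ-Vary and EQ had a correlation of 0.998 in EC and 0.9996 in TB, and those in EQ-75% and EQ of 0.737 and 0.880. The ratio of TB to EC was nearly the same in the 3 experiments, 1.95, 1.98 and 2.00.

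**Figure D5:**
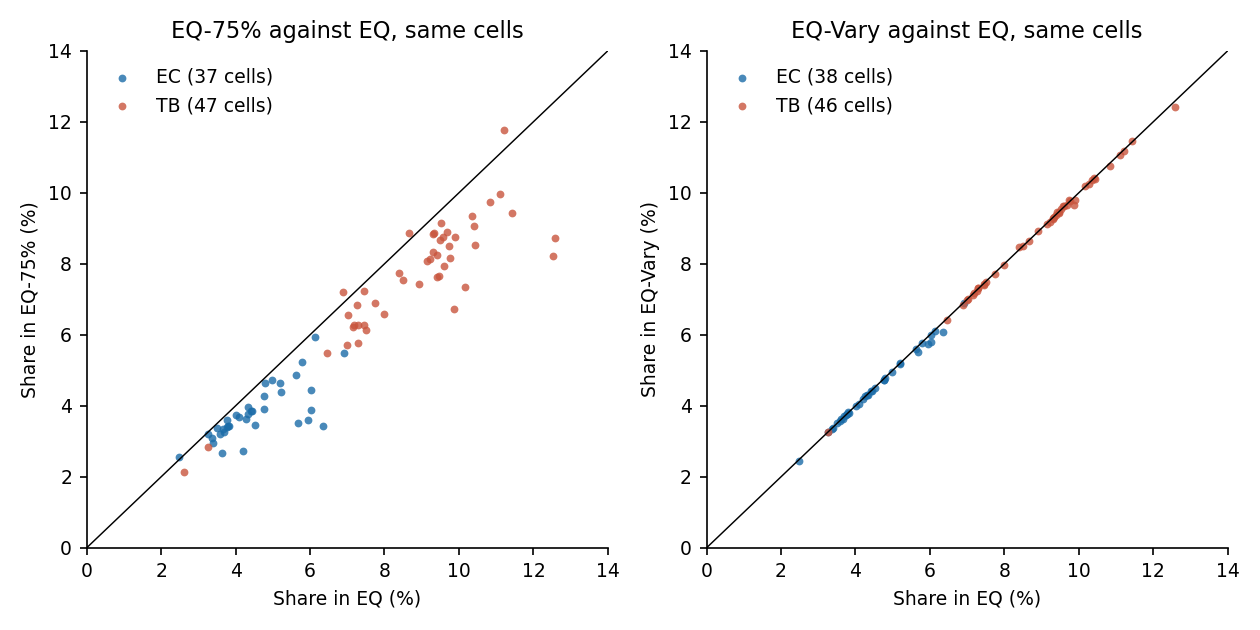
Share of counts in members of the same cell in EQ (x axis, percent) and in EQ-75% (left, y axis) or EQ-Vary (right, y axis), for EC (blue) and TB (red). The line marks equal shares: 36 of 37 EC and 44 of 47 TB cells lie below it for EQ-75%, while in EQ-Vary all cells lie on or near it.

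The decrease in EQ-75% was graded over the members. The mean within-cell log2 change was below 0 for 72 of 72 canonical members in EC and for 70 of 72 in TB, and over all genes tested it was below 0 for 79.3% in EC and 72.2% in TB. Its median over canonical members was -0.32 in EC and -0.28 in TB, against -0.12 and -0.07 over all genes and -0.08 and -0.02 over genes of at least 100 CPM. Among genes at that level whose transcripts are under 1000 bases, other than members, the medians were -0.12 and -0.06. Of the canonical members, RPS28, RPS26, RPS27, RPL36A and RPS9 changed most in EC, from -0.55 to -0.50, and RPS21 changed most in TB, by -0.56. The pseudogene rows RPL7P1 and RPL21P28 had larger mean changes in EC, -1.11 ± 2.32 and -0.79 ± 2.63, and -0.18 ± 0.91 and 0.57 ± 1.72 in TB, each with an SD larger than its mean. RPS28 was lower in all 47 TB cells and in 36 of 37 EC cells. RPL5, a member of the 5S particle, had a change of -0.02 ± 0.09 in EC and 0.01 ± 0.08 in TB, and RPL7, RPL9 and RPL23A were also between -0.07 and 0.02 in both types. The changes of the 72 genes in EC and TB, which are different cells, had a correlation of 0.91. They followed the mean level (Spearman correlation 0.63 in EC and 0.57 in TB) and the transcript length (0.45 and 0.54) more than the GC content (-0.27 and -0.14) of the members, whereas over the other genes of at least 100 CPM the change had a correlation with GC content of -0.63 and -0.61. In EQ-Vary, the mean change was below 0 for 59.4% of all genes in EC and for 56.8% in TB, as it was for 54 and 42 of the 72 canonical members, with medians of -0.01 and 0.00.

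A pseudogene row went the other way. RPL21P119, whose log2 ratio of EC over TB in EQ was -1.66, had a mean within-cell log2 change of 2.00 ± 3.24 in EC and 2.20 ± 3.57 in TB from EQ to EQ-75%, with SDs larger than the means. In EC it was detected in 22 of 38 cells in EQ and 31 of 39 in EQ-75%, and in TB in 27 of 48 and 47 of 50, although depth was lower. Its share of the counts of the 5 RPL21 rows went from 1.69% to 5.02% in EC and from 2.12% to 5.42% in TB, while that of RPL21 itself went from 41.6% to 38.8% and from 41.1% to 37.5%. The sum of the 5 rows was 1248 ± 409 CPM in EQ and 1131 ± 374 CPM in EQ-75% in EC. All 51-base windows of RPL21P119 match other RPL21 rows within 2 mismatches.

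Genes that work beside the members were compared with the same counts. FAU, which encodes a small subunit protein as a fusion with a ubiquitin-like sequence, had a log2 ratio of -0.56, within 1.5-fold. RACK1, a signalling scaffold on the small subunit listed as GNB2L1, had -0.82, past 1.5-fold. Of 14 translation factor and related genes with TOP mRNAs, 11 were more than 1.5-fold higher in TB and none in EC, with a median log2 ratio of -0.76, where 33.7% of all genes were so in TB. EEF1A1, the elongation factor that brings aminoacyl-tRNA to the ribosome, was at 9375 ± 2786 CPM in EC and 24208 ± 7068 CPM in TB, a ratio of -1.37, and PABPC1, the poly(A)-binding protein, had -1.70. The summed level of the 14 had a correlation with that of the members of 0.73 in EC and 0.91 in TB. Of 76 mitochondrial ribosomal protein genes, 32 were more than 1.5-fold higher in TB (42.1%, against 33.7% of all genes) and 4 in EC (5.26%, against 26.8%), with a median of -0.45. Of the 28 nucleolar and assembly factors, 3 were more than 1.5-fold higher in TB (10.7%) and 4 in EC (14.3%), both below the shares over all genes, with a median of 0.23. NCL, the nucleolin gene, had a ratio of -0.45, and GNL3, a nucleolar GTPase, had 0.98.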

How the data were processed

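Expected counts of 17492 gene rows in 288 libraries were used as deposited. The authors trimmed the reads to 51 bases, mapped them with Bowtie 1.2.3 (up to 2 mismatches) to a GRCh38 Ensembl reference described as protein-coding, although 12 members are annotated as pseudogenes in GENCODE v44, estimated the deposited expected counts with RSEM 1.2.31, and did not normalize them. Libraries had been selected for fragments of 150 to 700 bp, and RSEM divides reads among near-identical rows, which moves counts between members.

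Here the counts were rounded and scaled to CPM. Ratios used a pseudocount of 1 CPM and genes of at least 1 CPM. Count-depth rates came from median regression (quantreg 6.1, R 4.3.3) of genes counted in 10 or more cells whose nonzero counts had a median of 2 or more. Everything else ran in Python 3.11.15 (pandas 2.3.3, numpy 2.4.6, scipy 1.17.1), with plots by matplotlib 3.10.9. scran 1.30.0 and edgeR 4.0.16 gave alternative scalings. Both ratios and rates were first tested on simulated data.

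Samples were grouped by their labels, and 0 sample columns were left unused. Cells of one number share cDNA across experiments, and in each pair of passing libraries the deviations from the type means had a correlation of at least 0.845, so experiments were compared within cells. The lowest total among passing cells, 291377 counts, limits single-cell values near 10 CPM to about 3 counts.

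Genes were named by rule: the 5 largest and 5 smallest ratios, the 5 highest and lowest per length, members under 10 CPM, the largest and smallest EQ-75% changes, paralogue pairs and role lists. Other members named in the text were chosen after their values were seen. Members and lists were chosen with earlier results of these data known. Positions and lengths are from GENCODE v44 and RefSeq and may differ from the release the authors used. Some genes are not reported here.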

Additional observations from a re-analysis of the deposited data

How the results depend on the processing

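Of 128 alternative values of 20 results, 89 moved by less than the SD between the 3 experiments (for the within-cell differences, the SD between cells; for counts of members, a factor of 1.5). EQ-Vary and EQ-75% are themselves among the alternatives, and the lower shares in EQ-75% widen the SD used for the shares. The tally therefore describes the settings and is not an independent test. The choice of cells without EC cell 15 or TB cells 7 and 9, and of canonical members only, was made after seeing the data. Every alternative kept the share of counts and the median ratio lower in EC, and members past 1.5-fold higher in TB numbered between 64 and 72, or 60 of the canonical members only. Of all genes tested, 33.7% were past 1.5-fold higher in TB in EQ-Vary and 34.4% in EQ-75%. That share is not given here for the other alternatives.

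In EQ-75% the share was 3.83% in EC and 7.63% in TB, a difference of -3.81 points, and without the 3 cells the difference was -4.64. The median log2 ratio was -0.73 with TMM factors, -0.75 with scran size factors, -0.84 with all cells, -0.86 with median CPM, -0.83 in EQ-Vary, -0.84 in EQ-75%, -0.87 without the 3 cells and -0.83 over canonical members. The median over all genes tested moved too, from -0.06 to 0.01 with TMM factors, -0.01 with scran size factors and -0.23 with median CPM. It was -0.05 with all cells, in EQ-Vary and without the 3 cells, and -0.10 in EQ-75%. Members past 1.5-fold higher in EC were 2 with all cells and 0 at 10 CPM, where RPL23AP82 was no longer tested.

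The correlation of the RPL and RPS sums was 0.89 with all cells and 0.90 in EQ-75% for EC, and for TB it was 0.93 by Spearman, 0.96 over cells of at least 1000000 counts, 0.96 in EQ-Vary and 0.96 without TB cells 7 and 9. The median correlation over pairs was 0.18 over cells of at least 1000000 counts and 0.16 in EQ-75% for EC, and for TB it was 0.30 by Spearman, 0.38 with all cells, 0.24 over cells of at least 1000000 counts, 0.33 in EQ-Vary and 0.23 without TB cells 7 and 9. The median coefficient of variation was 0.498 with all cells and 0.409 in EQ-75% for EC, and 0.302 in EQ-Vary and 0.292 without TB cells 7 and 9 for TB. The median count-depth rate of all members, 1.27 in EC and 1.07 in TB, was 1.37 and 1.26 by least squares, 1.11 in EQ-Vary and 0.9996 with all cells for EC, and 1.16 (EC) and 1.23 (TB) in EQ-75%.

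With no replicate block, that is from the means over the passing cells of each experiment instead of paired cells, the EQ-75% difference in share was -0.710 points in EC and -1.22 in TB. The EQ-Vary difference, near 0, was -0.0357 points in EC without the block and turned to 0.0354 in TB, and with all cells it turned to 0.0192 in EC. The cause of these movements was not tested. Depth limits the rows under 10 CPM, and a single sample per cell type limits every comparison of EC with TB.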

Other observations

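Cells outside the limits of the study entered only the alternative values described as with all cells. In EQ, 7 EC cells with 11410 to 336867 counts had a share of counts in ribosomal protein genes from 2.26% to 5.95% (median 3.87%), and 3 TB cells with 8572 to 45813 counts had 8.03% to 9.59% (median 8.41%). In EQ-Vary the ranges were 2.32% to 7.54% over 7 EC cells and 2.72% to 12.4% over 5 TB cells.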
